A study of Mus musculus with 3 samples.

Results

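TEC and sense intronic models are poorly characterised entries of the mouse gene annotation. They were taken here as the genes with at least 1 transcript whose biotype in the target names of the deposited transcript tables is TEC, a class set aside by annotators for experimental follow-up, or sense_intronic. One TEC gene was left out by the rule. The rule found 3589 genes of 55536 annotated genes, 3257 with a TEC transcript and 334 with a sense intronic one, and 2 of these carry both. For levels, 3218 genes of TEC type and 327 of sense intronic type are described apart. Another 44 genes are of a different type and hold a member isoform only.

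All libraries come from the chromatin fraction of macrophages (phagocytic immune cells) that were cultured from the bone marrow of C57BL/6J mice. The cells had received 100 ng/ml of lipid A, the part of bacterial lipopolysaccharide that engages the receptor TLR4, for 120 min. Ribosomal RNA was depleted and total RNA was sequenced. The 3 libraries form 1 group, labelled biological replicates 1, 2 and 3, made from 1 µg, 250 ng and 500 ng of RNA. No age or sex was collected, no genetic change is named, and no untreated library was analysed here, so nothing below measures a response to lipid A. All 3 carry the same donor entry, so the limma p-values below rest on the spread between these preparations, which may be technical. The chi-square p-values below set differences between the libraries against counting noise alone.

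TEC models mark places where single-exon transcript evidence was found by annotators but no function or full structure has been established. Sense intronic models lie in an intron of another gene on that gene's strand. RNA attached to chromatin is rich in transcripts still being made and spliced, so intron sequence is abundant in such a preparation, and a model placed in an intron receives reads from whatever RNA carries its sequence.

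The 3′ ends of abundant models are shown first because the polyadenylation hexamer is the sequence feature that can be read from the models themselves. The last 100 bases are printed 5′ to 3′ in the model's own orientation, from the GENCODE M21 transcript sequences (mm10), with AATAAA or ATTAAA in capitals. They belong to the 4 models of each class with the highest mean TPM among those of 1 exon and 1 transcript that overlap no untranslated region. Gm37110 was added after its values were seen, since a second model has the same sequence.
Gm49730, TEC, chr16:35866179-35866278, minus strand: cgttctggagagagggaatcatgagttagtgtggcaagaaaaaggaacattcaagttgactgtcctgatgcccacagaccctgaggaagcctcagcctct
Gm47087, TEC, chr9:13312347-13312446, plus strand: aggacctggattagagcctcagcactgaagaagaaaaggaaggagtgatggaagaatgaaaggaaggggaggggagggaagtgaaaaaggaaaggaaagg
Gm43982, TEC, chr6:134075083-134075182, plus strand: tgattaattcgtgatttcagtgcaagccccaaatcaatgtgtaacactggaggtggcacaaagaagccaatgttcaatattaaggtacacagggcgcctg
Gm43984, TEC, chr6:134087365-134087464, plus strand: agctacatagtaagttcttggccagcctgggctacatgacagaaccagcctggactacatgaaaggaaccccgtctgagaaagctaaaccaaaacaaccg
Gm37110, TEC, chr1:32486843-32486942, plus strand: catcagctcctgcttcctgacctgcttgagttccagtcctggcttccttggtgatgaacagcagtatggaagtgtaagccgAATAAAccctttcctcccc
Gm29488, sense intronic, chr1:131406812-131406911, minus strand: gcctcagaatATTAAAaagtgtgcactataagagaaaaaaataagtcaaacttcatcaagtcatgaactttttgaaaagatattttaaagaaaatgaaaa
Gm43728, sense intronic, chr5:5309002-5309101, minus strand: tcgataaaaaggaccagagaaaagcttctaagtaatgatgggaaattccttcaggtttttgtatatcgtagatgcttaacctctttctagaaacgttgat
Gm48194, sense intronic, chr13:59781062-59781161, minus strand: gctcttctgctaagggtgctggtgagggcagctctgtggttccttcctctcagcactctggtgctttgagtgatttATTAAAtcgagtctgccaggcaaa
Gm43727, sense intronic, chr5:5304356-5304455, minus strand: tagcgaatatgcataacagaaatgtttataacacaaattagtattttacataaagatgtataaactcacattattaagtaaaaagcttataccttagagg

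Neither hexamer stands in the windows of the 4 most abundant TEC models shown, Gm49730, Gm47087, Gm43982 and Gm43984. Gm37110 and Gm48194 hold 1 each within their last 50 bases. In Gm29488 the single match lies further upstream, and Gm43728 and Gm43727 have none. Over the whole classes, AATAAA or ATTAAA stood in the last 50 bases of 28.9% of 3251 TEC transcripts and 27.8% of 352 sense intronic transcripts. The share was 33.8% of all 141672 transcripts in a window of that length, 50.2% of protein-coding transcripts, 39.5% of lincRNA transcripts and 22.4% of retained-intron transcripts. Among members detected in every library it was 22.6% of 607 TEC transcripts and 20% of 85 sense intronic ones. The reverse complements TTTATT or TTTAAT, looked for in the same windows, stood in 7.47% of TEC, 6.82% of sense intronic and 7.17% of all transcripts, so the hexamers were more frequent than their reverse complements in both classes. The median GC content was 42.3% for TEC and 44.4% for sense intronic transcripts, against 49.2% for all transcripts. A match is a string of letters and not a mapped cleavage site.

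Libraries held 19751051, 20372850 and 21984526 expected counts over annotated genes in replicates 1, 2 and 3, so that 3 counts correspond to 0.152, 0.147 and 0.137 CPM. Of 18 macrophage identity genes, 17 had a mean of at least 1 TPM, while 0 of 8 B cell, 0 of 7 neutrophil and 0 of 5 stromal marker genes reached it. 4 of 9 T cell, 2 of 5 endothelial, 1 of 6 NK cell and 1 of 6 erythroid markers did, and among these lists Cd3e, Cd3g and Ly6g were at 0 in every library. Gm26917 took 29.7%, 24.5% and 20.9% of counts in replicates 1, 2 and 3. TPM values and percentages of library totals, by which libraries are also set side by side below, moved with such shares. Counts scaled by trimmed means are used for the test of variation and for the ratios between replicates, unless another scaling is named.

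TEC genes took 208024, 263890 and 402848 expected counts in replicates 1, 2 and 3, which is 1.05%, 1.30% and 1.83% of each library. Sense intronic genes took 11456, 15231 and 25763 counts, or 0.058%, 0.0748% and 0.117%. The exact Clopper-Pearson intervals at 95% on these shares are no wider than 0.0056 percentage points on either side and cover counting error only. Both shares were lowest in replicate 1 and highest in replicate 3, and the spread between libraries was far above counting error. Retained-intron transcripts took 9.83%, 11.2% and 15.2% in the same order of libraries, and antisense transcripts 0.389%, 0.472% and 0.662%.

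At least 1 TPM in every library was reached by 604 of 3218 TEC genes (18.8%) and 82 of 327 sense intronic genes (25.1%), against 18.4% of all annotated genes. The TEC share was thus near that of the whole annotation. Protein-coding genes without a member isoform reached this level in 37.4%, antisense genes in 12.4% and lincRNA genes in 2.68%. No count in any library was recorded for 1426 TEC genes (44.3%) and 107 sense intronic genes (32.7%), while 57.7% of all annotated genes were at 0. Detected members were of low level: the median of detected TEC genes was 5.17 TPM and of detected sense intronic genes 3.70 TPM, against 7.95 TPM for all detected genes. At least 10 TPM in every library was reached by 93 TEC and 3 sense intronic genes.

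The classes differ in structure. A single exon was annotated for 97.9% of TEC genes and 45.3% of sense intronic genes, and the median exonic length was 1957 and 1012 nt. Shorter than 200 nt were 50 TEC and 4 sense intronic genes, whose TPM is unstable: Gm12238, a sense intronic model of 124 nt in G3bp1, was listed at 705.62, 0 and 0 TPM from 19, 3 and 0 counts. The other quantifier, a further deposited table described under the processing, gave 1189 TEC and 156 sense intronic genes at 1 TPM or more. It placed 239 of the 1426 TEC genes without a count in the main table at that level. Which table is closer to the RNA was not tested.

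Position set the classes apart as well. Of TEC genes, 1625 (50.5%) lay inside a same-strand gene without touching its exons, 91 overlapped an exon of a same-strand gene, 550 overlapped a gene on the opposite strand only, and 952 (29.6%) lay outside genes. Of sense intronic genes, 318 (97.2%) lay in a same-strand gene between its exons. Detection followed position, with 447 of the 1625 intronic TEC genes at 1 TPM or more (27.5%), 30 of the 91 with exon overlap (33.0%), 96 of the 550 on the opposite strand (17.5%) and 31 of the 952 outside genes (3.26%). Among sense intronic genes in introns it was 82 of 318 (25.8%).

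The level of the surrounding gene ordered the detection of intronic models. For TEC models of at least 200 nt inside a same-strand protein-coding gene, called the host here, 2 of 505 were detected in hosts below 0.1 TPM and 4 of 213 in hosts of 0.1 to 1 TPM. The numbers were 37 of 219 in hosts of 1 to 5 TPM, 142 of 248 at 5 to 20 TPM and 237 of 269 (88.1%) above 20 TPM. The median level in the last of these bins was 4.26, 6.91 and 10.2 TPM in replicates 1, 2 and 3. Nearly all detected intronic TEC models therefore lay in hosts that were themselves above 1 TPM. For sense intronic models the numbers were 0 of 77, 1 of 31, 7 of 63, 32 of 64 and 42 of 72 (58.3%) in the same bins. Across 1454 TEC models the rank correlation with the host's TPM was 0.873, 0.885 and 0.891 in replicates 1, 2 and 3, and across 307 sense intronic models it was 0.645, 0.648 and 0.673. These are correlations across models that share libraries and often hosts, and models are not independent replicates.

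TEC models in an intron on the opposite strand followed the same order. None of 81 was detected where the protein-coding gene around it was below 0.1 TPM and 0 of 23 at 0.1 to 1 TPM, while 7 of 28 were detected at 1 to 5 TPM, 13 of 42 at 5 to 20 TPM and 27 of 32 (84.4%) above 20 TPM. These models touch no exon of the gene opposite. In the last bin their median level was 4.11, 5.88 and 8.88 TPM in replicates 1, 2 and 3, beside 4.26, 6.91 and 10.2 TPM for same-strand models. The rank correlation with the opposite gene was 0.795, 0.810 and 0.826 over 206 models. The strand setting of the counting is not given in the sources used here, so RNA of the model and RNA of the gene around it cannot be told apart on either strand.

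**Figure D1:**
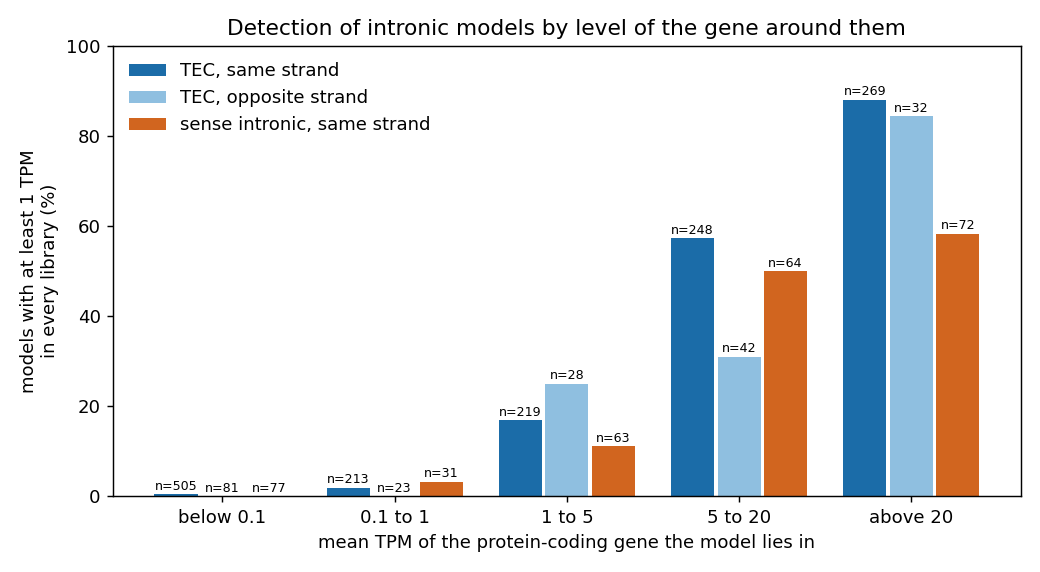
Share of intronic models of at least 200 nt with at least 1 TPM in every library, in percent, by the mean TPM of the protein-coding gene they lie in. Numbers over the bars are models per bin. In all 3 sets the share was highest in genes above 20 TPM, with 88.1% for same-strand TEC, 84.4% for opposite-strand TEC and 58.3% for sense intronic models.

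Many models lie in genes with little or no signal in these cells. The 1761 same-strand intronic models of at least 200 nt lay in 1052 hosts, of which 300 hold more than 1 model, and 582 models (33.0%) had a host below 0.1 TPM. Kcnip4, a regulator of potassium channels, holds 24 models, Auts2 and Cntnap2 22 each, and Adgrb3 and Dlg2 19 each, all genes best known from neurons. None of these models was detected, and their hosts had means of 0.82, 0.0567, 0, 0 and 0.113 TPM. Rabgap1l, at 14.0 TPM, holds 9 models, of which 0 reached 1 TPM in every library. Their means lay between 0.313 and 2.20 TPM, so they had signal that missed the threshold. Dis3l2, at 9.77 TPM, also holds 9 models, of which 1 was detected.

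Inside their hosts, most models that were tested had a lower level per length than the host gene. The test was a limma fit of log2(TPM + 0.1) of the model minus that of the host over the 3 libraries, with Benjamini-Hochberg adjustment over all 1425 nested genes of any biotype and calls at an adjusted p under 0.05. Of 1473 TEC and 309 sense intronic models lying inside a host between exons, 19 and 2 were shorter than 200 nt, 645 and 121 fell below the count filter, and 809 and 186 were tested. Called lower were 706 of 809 TEC models (87.3%) and 170 of 186 sense intronic models (91.4%), against 85.2% of all nested genes. Called higher were 22 TEC models (2.72%) and 2 sense intronic models (1.08%), against 5.47% of all nested genes. The lower calls were near this background, of which members are the larger part. Models with few or no reads passed the count filter through the level of the host, so their lower call was fixed by the filter. No more than 719 of the tested TEC and 141 of the tested sense intronic models had a mean count of at least 10 themselves. The shares called lower and the median ratios below include the others. Among the 428 other nested genes, 78.5% were called lower and 12.6% higher, and the difference between these and the members was not tested.

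The median log2 ratio to the host was -2.69, -2.39 and -2.13 for TEC models and -3.03, -2.72 and -2.21 for sense intronic models in replicates 1, 2 and 3. For all nested genes it was -2.78, -2.48 and -2.20. The mean of the 3 medians corresponds to a level 5.29-fold below the host for TEC and 6.30-fold below it for sense intronic models. The ratio was highest in replicate 3 for 565 of the 809 TEC (69.8%) and 121 of the 186 sense intronic models (65.1%). It was so for 63.8% of all nested genes, most of which are members, and for 221 of the 428 other nested genes (51.6%). The difference between these and the members was not tested. By exon number, sense intronic models of 1 exon had a median log2 ratio of -2.39 (105 models) and those of 2 or more exons -3.18 (81 models). The 2 sets also differ in length, with medians of 1779 and 695 nt in hosts at 5 TPM or more. The part of length was not tested.

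The other quantifier tested 1300 TEC and 254 sense intronic models and called 239 (18.4%) and 39 (15.4%) of them higher and 927 (71.3%) and 191 (75.2%) lower than the host, against 17.8% higher and 72.6% lower of all nested genes. When the host level was taken from its protein-coding isoforms alone, 37 of 766 TEC models (4.83%) and 6 of 172 sense intronic models (3.49%) were called higher, against 8% of all nested genes, and 489 (63.8%) and 123 (71.5%) lower, against 64.5%. With the host isoforms that span the model, an alternative chosen after seeing the data, 35 of 751 TEC (4.66%) and 8 of 166 sense intronic models (4.82%) were called higher, against 8.65%, and 499 (66.4%) and 119 (71.7%) lower, against 65.6%.

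**Figure D2:**
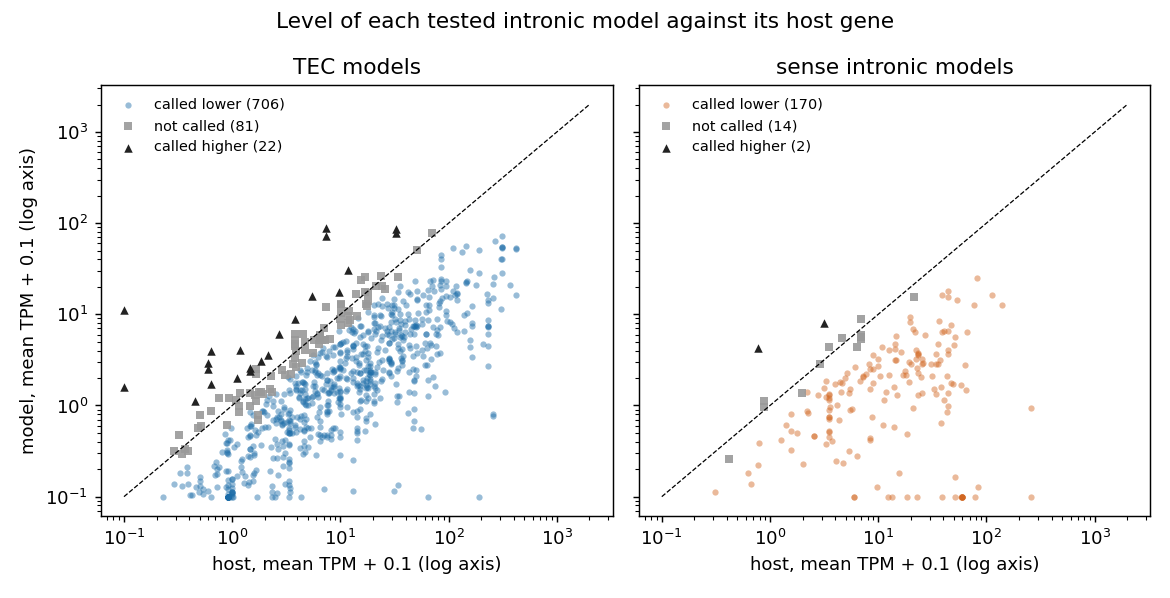
Mean TPM + 0.1 of each tested intronic model against that of its host gene, both on log axes, for 809 TEC and 186 sense intronic models. Each point is 1 model, marked by its call, and the dashed line is equality. The 22 TEC and 2 sense intronic models called higher lie above the line, and 706 and 170 models called lower lie under it. Models with few or no reads entered through the level of the host.

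The 24 models called higher had hosts from 0 to 32.7 TPM, with a median of 1.54 TPM, and 17 of the 24 models had a host below 5 TPM. A host of several such models was counted once per model. Gm47087 lies in the first part of Maml2, a coactivator of Notch signalling, at chr9:13308214-13312446 (4233 nt, plus strand). It had 47.2, 81.4 and 135.84 TPM in replicates 1, 2 and 3, where the host had 6.36, 5.97 and 9.5 TPM. Phxr4, an intronic model 133 kb into the same host, had 45.04, 66.3 and 107.58 TPM. Model and host did not overlap in any library for either. The log2 ratios were 3.48 ± 0.32 (moderated SE from limma, n = 3, limma adjusted p = 1.3e-06) and 3.25 ± 0.30 (limma adjusted p = 1.6e-06). Here and for all log2 ratios below, this SE borrows from the spread of all nested genes tested. It is not the spread of the model's own 3 libraries, which can be smaller or larger. Another Maml2 model, Gm47089, had 77.09, 116.25 and 256.26 TPM, but at 166 nt it is too short for a reliable level per length and was not tested.

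Etv6, a transcriptional repressor of the ETS family, holds 2 abundant models. Gm43982 had 53.91, 84.72 and 118.1 TPM and Gm43984 had 63.38, 72.74 and 96.66 TPM, against 28.1, 30.6 and 39.3 TPM of the host. Both stood above the host in every library, with log2 ratios of 1.33 ± 0.30 (limma adjusted p = 0.0014) and 1.24 ± 0.29 (limma adjusted p = 0.0017). With the other quantifier the ratios changed sign, to -0.33 (limma adjusted p = 0.21) and -0.44 (limma adjusted p = 0.099), so that the order of model and host depends on the table.

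Other models above the host were of lower level. 2900092N22Rik, in the calcium channel subunit gene Cacnb2, had 1.38, 2.19 and 7.87 TPM against 0.42, 0.39 and 0.80 TPM of the host, a log2 ratio of 2.29 ± 0.35 (limma adjusted p = 8.2e-05). With the other quantifier it was 0.49 (limma adjusted p = 0.13). Gm38056, in Plcl1, a phospholipase-like gene, had 1.28, 3.53 and 3.72 TPM against 0.28, 0.56 and 0.67 TPM, a log2 ratio of 2.21 ± 0.30 (limma adjusted p = 2.9e-05). Both sense intronic models called higher were of the same order: Gm28229 in Gm20537 had 1.33, 4.06 and 7.21 TPM against 0.73, 0.80 and 0.47 TPM. Gm47357, in the histone deacetylase gene Hdac9, had 5.28, 7.08 and 11.34 TPM against 2.55, 2.72 and 3.96 TPM, and its mean was 7.90 TPM here and 12.2 TPM with the other quantifier. Their log2 ratios were 2.22 ± 0.46 (limma adjusted p = 0.00077) and 1.29 ± 0.30 (limma adjusted p = 0.0015), and with the other quantifier that of Gm28229 was 0.50 (limma adjusted p = 0.18).

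Hosts listed at 0 in every library give no fold. Gm47164, in Lrriq1, had 1.11, 1.42 and 1.92 TPM with the host at 0, but the other quantifier put it at 553 TPM, so its level is not known from these tables. Gm37110, in the RNA-binding protein gene Khdrbs2, had 7.17, 10.21 and 15.89 TPM with the host at 0 in all libraries, and a mean of 50.3 TPM with the other quantifier against 11.1 TPM here. Its 1628 nt are identical to those of Gm44183, which lies on the opposite strand inside Nek6, a mitotic kinase gene, and had 4.78, 10.21 and 13.9 TPM. Reads of these models cannot be told apart, and Nek6 had 16.7, 10.03 and 15.9 TPM. The other 3 models in Khdrbs2, Gm37999, Gm37911 and Gm37792, were at 0 in every library. In all, 31 members fall into 14 groups of identical sequence, and without them 21 of 805 TEC models were called higher and 704 lower.

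Identical sequences also touch abundant members. Gm20236 (4540 nt) lies in Slc25a37, the mitochondrial iron importer gene, and Gm37094, of the same sequence, in Gm16867 on the same chromosome. Both were listed at 36.29, 52.34 and 63.06 TPM. These equal values are 1 measurement shared between copies, and the host Slc25a37 had 144, 181 and 249 TPM. Gm20236 was called lower than Slc25a37 (log2 ratio -1.92 ± 0.29, limma adjusted p = 7e-05), but against the host's coding isoforms the ratio was -0.08 (limma adjusted p = 0.85). Gm37094 was not called against its own host Gm16867, which had a mean of 50.85 TPM (log2 ratio 0.0019). The call thus depends on which copy's host is used.

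Several models were at or near 0 although the host was abundant. Gm44102, in the scaffold gene Frmd4b, was at 0 in all libraries with the host at 182, 162 and 233 TPM. Gm37613, in the cytoskeletal gene Nav2, was at 0 with the host at 77.0, 61.6 and 52.7 TPM. Gm43181 in Fbxl5, an iron-sensing ubiquitin ligase subunit, had 0, 0 and 0.05 TPM, and Gm43073 in Bcl9, a Wnt coactivator, 0, 0.05 and 0.05 TPM, with host means of 31.4 ± 10.8 and 34.3 ± 6.79 TPM (SD, n = 3). These models passed the count filter only through the level of the host, so no test is given for them. Gm37613 lies where few isoforms of Nav2 reach: the host isoforms whose span contains it held 1.39, 0 and 0 TPM. For Gm44102 the isoforms of Frmd4b that span it held between 25.2 and 44.4 TPM, so the model was at 0 beside annotated isoforms that were not.

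The same pattern held in the sense intronic class. The 6 models in Frmd4a, the paralog of Frmd4b, were all at 0 in every library (Gm10862, Gm38085, Gm37814, Gm37107, Gm38348 and Gm36988), while the gene had 57.3, 50.3 and 68.8 TPM. They lie 73.4 to 299 kb from the annotated gene start, and the isoforms that span them held 0 to 9.47 TPM. Gm16227 in Rasgef1b, an exchange factor gene, was at 0 with the host at 93.6, 81.7 and 62.0 TPM, and the isoforms that span it held no more than 0.07 TPM. AC122252.1, annotated in the span of Dusp1, the phosphatase that switches off MAP kinases, had 0.08, 0 and 0 TPM with the host at 77.3, 80.7 and 93.7 TPM, and the isoform that spans it was at 0. Gm30409, of 229 nt in 2010111I01Rik, was at 0 with the host at 244, 248 and 285 TPM, of which the isoforms that span it held 9.19, 7.30 and 7.85 TPM. These also entered the comparison through the host alone, and no test is given. With the other quantifier Gm44102, Gm43181 and Gm30409 had means of 0.376, 1.20 and 2.24 TPM.

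Within 2010111I01Rik the models differed by position. Gm47584, Gm47587 and Gm47583, placed 45.1, 178 and 246 kb into the gene, had no more than 1.04 TPM in any library. Gm47586 and Gm47585, at 279 and 309 kb, had 13.13, 20.9 and 29.8 TPM and 10.95, 14.61 and 19.51 TPM. The isoforms spanning Gm47584 held 6.55 TPM on average and those spanning Gm47585 held 157 TPM, so levels of models and of spanning isoforms were both higher at the far end.

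Cdk14, a cyclin-dependent kinase gene, holds 7 sense intronic models whose level went down with distance from the gene start, except at Gm43111 in replicates 1 and 2. Gm43728 at 109 kb had 11.02, 14.99 and 28.09 TPM and Gm43727 at 113 kb had 9.07, 12.54 and 24.54 TPM. Gm10484 at 245 kb had 2.94, 5.07 and 11.55 TPM, and Gm43577 at 262 kb had 1.54, 2.62 and 6.48 TPM (a mean of 3.55, and 7.30 with the other quantifier). Gm43111 at 550 kb stood above Gm43577 in replicates 1 and 2 and in the mean (3.95 TPM), with 2.81, 4.15 and 4.9 TPM. Gm43113 and Gm43112, at 592 and 598 kb, had 0.58, 1.21 and 1.99 TPM and 0.34, 0.88 and 1.41 TPM, the lowest of the gene in all libraries. Isoforms spanning the first pair held 23.8 TPM on average, those spanning Gm10484 and Gm43577 31.4 TPM and those spanning the last pair 11.2 TPM. The spanning isoforms thus did not decline in the order of the models. The ratio of Gm43728 and Gm43727 to the host, -1.36 ± 0.31 and -1.60 ± 0.31 (limma adjusted p = 0.0013 and 0.00045), changed sign against coding isoforms, to 0.55 and 0.30 (limma adjusted p = 0.26 and 0.53).

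Cers6, a ceramide synthase gene at 312, 267 and 356 TPM, holds 6 TEC models. The first, Gm37159, had 57.78, 70.01 and 89.06 TPM at 29.9 kb from the start, and Gm38236 at 44.6 kb had 38.84, 52.37 and 69.35 TPM. Gm37747, at 128 kb, had the lowest values, 15.54, 25.84 and 43.58 TPM. Gm37666, at 152 kb, had 34.65, 50.99 and 79.86 TPM, so the decline with distance was not even. Gm37159 was called lower than Cers6 (log2 ratio -2.12 ± 0.30, limma adjusted p = 3.8e-05), but against coding isoforms alone the ratio was 0.78 (limma adjusted p = 0.068). In Dock10, an exchange factor for small GTPases, A630081D01Rik and Gm38062 lie 9.47 and 27.9 kb from the start and had means of 53.6 ± 22.9 and 51.9 ± 17.2 TPM (SD, n = 3). Gm37645, at 89.0 kb, had 16.3 ± 5.77 TPM and lay below both in every library.

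Over all hosts at 5 TPM or more with more than 1 model, the model nearer the gene start was the higher of 2 neighbours in 148 of 229 pairs (64.6%), the lower in 75 and equal in 6. In single libraries it was the higher in 132, 140 and 148 of the 229 pairs for replicates 1, 2 and 3. The median log2 difference was 0.27. Pairs of 1 host share models, and no test was made.

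**Figure D3:**
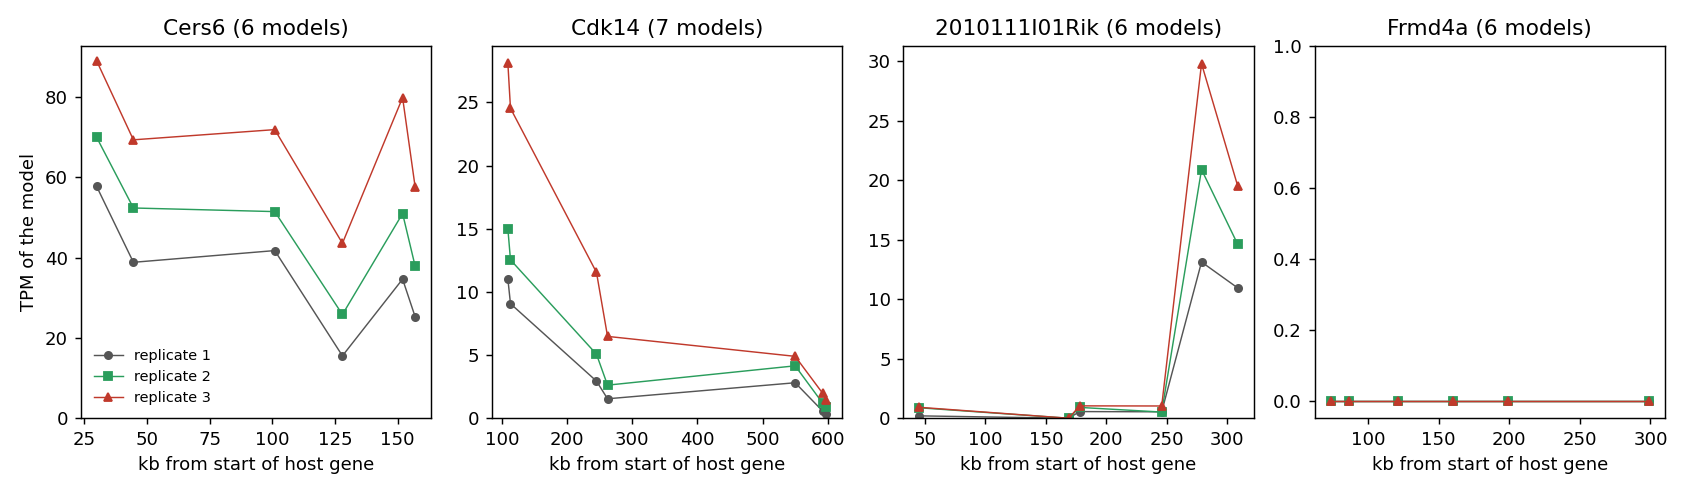
TPM of each model against its distance in kb from the annotated start of the host gene, with 1 marker per library, for 6 TEC models in Cers6, 7 sense intronic models in Cdk14, 6 models of both classes in 2010111I01Rik and 6 sense intronic models in Frmd4a. Cdk14 models are highest near 109 kb, 2010111I01Rik models from 279 kb on, and all Frmd4a models are at 0.

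The most abundant TEC models were, by the rule used, those of at least 200 nt with the highest mean TPM. Gm49730 led with 69.16, 107.76 and 177.51 TPM. It overlaps 110 bases of an exon of Parp14, an interferon-induced ADP-ribosyltransferase at 742, 968 and 1390 TPM, and reads of these shared bases cannot be told apart. AC167363.2 had 91.32, 109.15 and 81.85 TPM and overlaps 273 exonic bases of Cdkn1a, the p21 cell cycle inhibitor, on the opposite strand. Cdkn1a had 75.7, 162 and 78.2 TPM. The library order of AC167363.2 depends on the scale, since it was highest in replicate 2 in TPM and in replicate 1 in TMM-scaled counts (2130, 1817 and 1238). Gm37084 lies in an intron of Mapkapk2, the kinase downstream of p38 that stabilises cytokine messages, at chr1:131086252-131092149. It had 79.87, 71.65 and 79.42 TPM against 82.4, 76.5 and 52.1 TPM of the host, and its log2 ratio of 0.16 ± 0.31 did not pass (limma adjusted p = 0.63). With the other quantifier that ratio was -1.16 (limma adjusted p = 0.001). In TPM its relative spread was the lowest of the 8, but in TMM-scaled counts its squared coefficient of variation of 0.0594 was above that of Gm37159 (0.00449), Gm43984 (0.00881) and Gm43982 (0.0359).

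Sense intronic models were lower. Gm29488, in the GTPase-activating protein gene Srgap2, had 10.24, 21.93 and 42.57 TPM against 75.2, 78.2 and 93.3 TPM of the host. Gm48194 in Tut7, a uridylyl transferase, had 9.85, 16.59 and 22.58 TPM, and Gm17193 in Arel1, a ubiquitin ligase gene, 7.88, 15.82 and 24.98 TPM. In TPM replicate 3 was the highest and replicate 1 the lowest for each, although Gm48194 did not pass the test between libraries (chi-square, adjusted p = 0.073). With the other quantifier the mean of Gm17193 was 31.5 TPM against 16.2 TPM, the highest of the 8 most abundant models of its class. Gm48302, in the elongation factor gene Ell2, had 8.07, 17.21 and 17.06 TPM. Gm47664, in Elmo1, the engulfment adaptor that works with Dock proteins, had 7.63, 13.66 and 16.1 TPM. All 5 lay below the host, with log2 ratios from -2.83 to -1.37 and limma adjusted p from 5.1e-06 to 0.0015. Against the host's coding isoforms Gm48302 was not called (-0.83, limma adjusted p = 0.072), and against the isoforms that span it Gm47664 had a ratio of 0.14 (limma adjusted p = 0.73). Gm38115 in Tmem131, at 11.75, 13.31 and 21.52 TPM, was close to its host at 13.4, 18.6 and 31.5 TPM and was not called (log2 ratio -0.40 ± 0.29, limma adjusted p = 0.21).

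**Figure D4:**
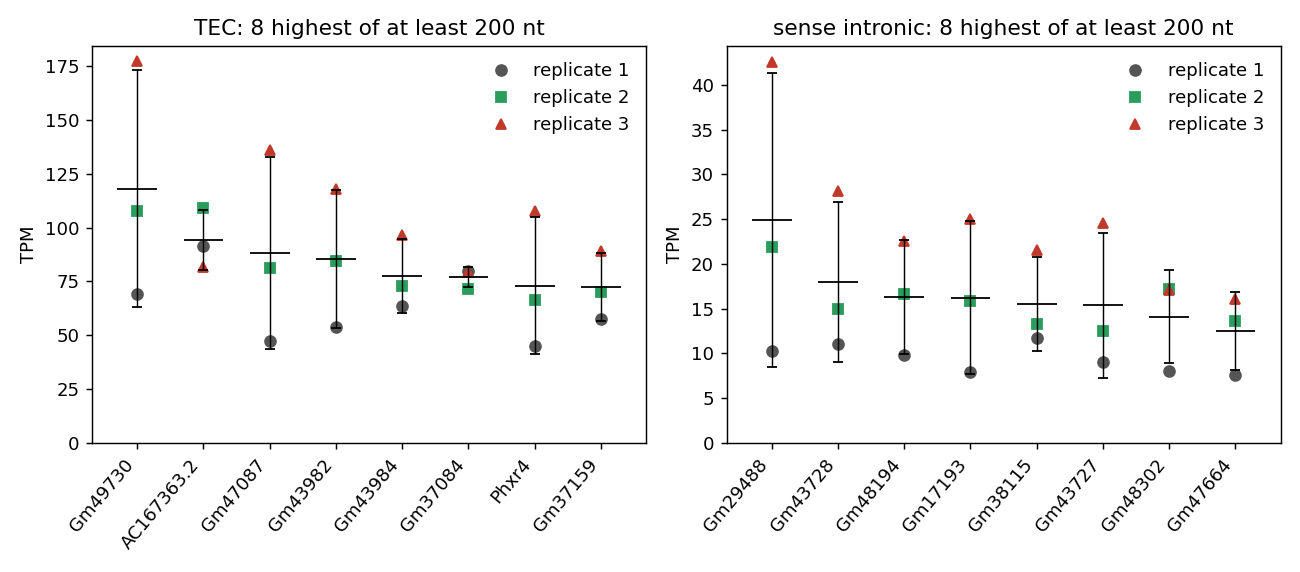
TPM in each library of the 8 TEC and the 8 sense intronic models of at least 200 nt with the highest means. Markers are libraries, horizontal lines are means and bars are 1 SD. Replicate 3 is the highest library for 6 of the 8 TEC models and 7 of the 8 sense intronic models, and the exceptions are AC167363.2, Gm37084 and Gm48302.

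Of 124 protein-coding genes on the immune lists, 4 (3.23%) contain a member on their strand, against 5.03% of all 22028 protein-coding genes. Over 5 lists of interferon response, NF-kB and feedback, TLR4 pathway, cytokine and macrophage identity genes, only Parp14, Nfkb1, Dusp1 and Irak2 contain a member on their strand, and 3 of these 4 members were detected. Gm43430, in Nfkb1, which encodes the p105 precursor of NF-kB p50, had 17.4, 23.81 and 36.24 TPM against 254, 256 and 281 TPM of the host. Gm43912, in Irak2, a kinase of the TLR signalling complex, had 9.22, 15.05 and 20.21 TPM against 93.7, 86.5 and 79.8 TPM. The log2 ratios were -3.41 ± 0.31 (limma adjusted p = 1.3e-06) and -2.61 ± 0.34 (limma adjusted p = 1.9e-05). Gm43912 did not pass the test of variation between libraries given below (chi-square, adjusted p = 0.13). On the opposite strand, chosen after values were seen, Gm43963 overlaps Irak2 (6.44, 9.02 and 12.94 TPM) and Gm43068 lies opposite the antiviral gene Oas2 (11.48, 20.93 and 29.03 TPM).

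Models outside genes were rarely detected. Of 952 such TEC models, 165 began within 5 kb downstream of a same-strand gene and 11 of these were detected (6.67%), against 20 of the other 787 (2.54%). Where that gene had at least 5 TPM, 8 of 32 models were detected, and where it had less, 3 of 133. Gm38275, which begins 2247 bases past Ms4a6d, a membrane protein gene of myeloid cells, had 5.62, 9.92 and 15.79 TPM, while Ms4a6d had 19.8, 35.2 and 36.6 TPM. Gm45553, 6283 bases past the signal peptidase gene Spcs3, had 11.76, 13.26 and 12.32 TPM against 1.07, 4.41 and 2.25 TPM of Spcs3. It was the most abundant TEC model outside genes and its TPM differed little between libraries. Gm44154, with the nearest same-strand gene end 69611 bases away, had 6.55, 13.17 and 14.82 TPM. These 3 were chosen after their values were seen.

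The 44 genes of another type that hold a member isoform were mostly processed transcripts (32), with 10 protein-coding genes and 2 pseudogenes. The gene reached 1 TPM in every library in 12 of them and the member isoform in 9. In Sfswap, a splicing regulator, the TEC isoform had 5.45, 4.10 and 10.5 TPM, which is 9.33% of the gene. In Dleu2, the host of the microRNAs 15a and 16-1, it had 3.71, 8.45 and 12.4 TPM (27.6%). In Ensa, an inhibitor of a mitotic phosphatase, it had 4.07, 7.43 and 11.6 TPM (28.2%). These isoform values depend on how reads were shared within the gene.

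Between libraries, 719 of 1047 TEC genes whose mean count reached 10 (68.7%) and 97 of 141 sense intronic genes (68.8%) varied beyond counting noise by a chi-square test on counts, against 68.1% of all 14184 genes tested. With all 3 libraries the share of members that varied was near the background share. By library, 617 TEC genes (58.9% of those tested) and 86 sense intronic genes (61.0%) varied with replicate 3 highest, against 24% of all genes tested. Replicate 1 was the highest for 60 TEC and 6 sense intronic genes that varied (22% of all genes), and replicate 2 for 42 and 5 (22.1% of all genes). Without replicate 3, 341 of 1005 TEC genes (33.9%) and 36 of 127 sense intronic genes (28.3%) varied, both below the 47.2% of all genes. Without replicate 2 the shares were 62.3%, 55.2% and 54.7%, and without replicate 1 they were 46.6%, 51.7% and 47.6%, so nearness to the background rests on which libraries enter.

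The median log2 ratio of replicate 3 to replicate 1 was 0.66 for TEC and 0.73 for sense intronic genes, 0.02 for all genes tested and -0.08 for the 634 hosts of tested members. Library totals in place of TMM factors shifted the median of all genes to 0.32 and turned the sign of the hosts, to 0.23, and of protein-coding genes, to 0.23. Relative to all genes, TEC stood at 0.64, sense intronic genes at 0.72 and hosts at -0.10 with TMM factors. TEC and sense intronic genes had the same 0.64 and 0.72 with DESeq2 size factors and with library totals. A scaling shifts all genes of a library alike, so this sameness was fixed in advance and tests nothing. TEC models outside genes (85 genes, 0.70) and on the opposite strand (194 genes, 0.55) were shifted in the same direction as those in same-strand introns (719 genes, 0.66). Antisense genes (0.31) and lincRNA genes (0.37) lay between members and protein-coding genes (-0.07 with TMM factors). The libraries also differ in starting RNA, and retained-intron transcripts moved in the same order. Their part in these ratios was not tested.

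**Figure D5:**
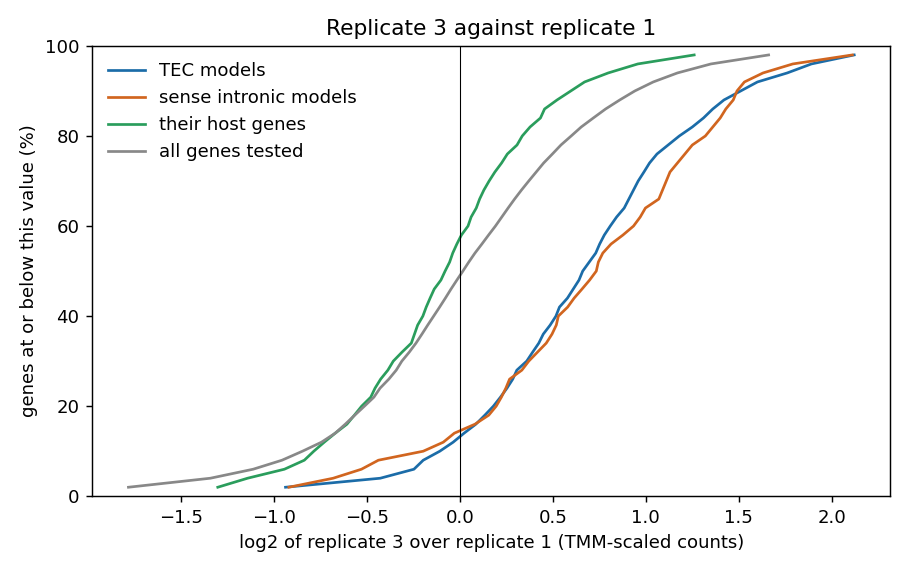
Cumulative share of genes, in percent, by log2 of replicate 3 over replicate 1 from TMM-scaled counts, for TEC genes, sense intronic genes, the hosts of tested members and all genes tested. Curves run from the 2nd to the 98th percentile. Both member curves lie to the right, with medians of 0.66 and 0.73 against -0.08 for the hosts, whose sign turns with library totals (0.23).

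Members with the largest variation, measured as the squared coefficient of variation beyond counting noise, were of low level. Gm37006 in Cacnb2 had 0.54, 0.76 and 3.51 TPM (0.797), and 2900092N22Rik, in the same host, is given above (0.605). Gm48998, which overlaps an exon of the diacylglycerol kinase gene Dgkh, had 3.1, 5.19 and 15.88 TPM (0.496). In each of these, replicate 3 was far above the others. Peg13 went the other way. It is an imprinted RNA expressed from the paternal allele in an intron of Trappc9, and it had 1.48, 1.11 and 0.57 TPM (0.368), with replicate 1 highest. Its host had 12.3, 11.3 and 10.2 TPM. Gm43466, in the mannosidase gene Man1a2, had 0.46, 1.02 and 2.17 TPM (0.323), and Gm43577 in Cdk14 is given above (0.33).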

How the data were processed

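The authors deposited, for each library, a gene table of expected counts (read totals shared out among features, which need not be whole) and TPM, in the column layout of RSEM per the file headers. They also deposited a transcript table of estimated counts and TPM in the layout of kallisto, summed per gene here and called the other quantifier. A deposited note names mm10 and GENCODE M21. The strand setting is not given in the sources used here, nor are quantifier versions. Members, lists and named genes were chosen with earlier results of these data known.

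Entries outside the annotation (0.845%, 0.282% and 0.179% of counts) were left out. Nested genes of at least 200 nt were tested with limma 3.58.1 where the mean of the observed count and the count at the host's TPM reached 10. Variation was tested on rounded expected counts with edgeR 4.0.16 TMM factors, a chi-square test with 2 degrees of freedom and Benjamini-Hochberg adjustment at 0.05. DESeq2 1.42.0 gave alternative size factors. Named per class are the 8 highest by TPM, 4 by count, 6 in each direction against the host, 4 most variable with a mean count of at least 50, and detected members in genes of the immune lists. One member that this rule names is not reported here. Of the sequences, only 3′ ends of single-exon models are shown. On simulated data for the 1425 nested genes, 79% of log2 shifts of 1 and 100% of shifts of 2 were recovered with 4 false calls. For variation among 14184 genes, 59% of 1.5-fold and 99% of 3-fold changes in 1 library were recovered with 12 false calls. The simulated ratios had the same normal spread for every gene, and the simulated counts had counting noise only. In the data 9665 of the 14184 genes varied beyond counting noise, so these false calls do not give the rate in the data. TPM is per length, and values under 200 nt are unreliable.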

Additional observations from a re-analysis of the deposited data

How the results depend on the processing

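No paired analysis was possible because there is only 1 group. Detected TEC genes numbered 604, and 1189 with the other quantifier, 1135 at 0.1 TPM and 189 at 5 TPM; sense intronic genes numbered 82, and 156, 169 and 13. TEC models called higher than the host numbered 22, and 239 with the other quantifier, 37 with coding isoforms as host level and 35 with isoforms spanning the model, an alternative chosen after seeing the data; for sense intronic models these were 2, and 39, 6 and 8, and 8 with no count filter. TEC genes that varied numbered 719, and 1095 with the other quantifier. Leaving out 1 library in turn gave 341 to 656 TEC and 36 to 80 sense intronic genes that varied. The cause was not tested, except that fewer libraries give fewer calls by construction. Called lower counts stayed within 1.5 times of 706 and 170 under all alternatives run, but the number tested changed. With no count filter they were 777 of 1167 TEC and 205 of 266 sense intronic models, beside 1486 of 2292 nested genes. These are smaller shares than 706 of 809 and 170 of 186.

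Of the ratios to the host of named members, those that changed sign were, with the other quantifier, Gm37084 (-1.16), Gm37006 (-0.63), Gm43982 (-0.33) and Gm43984 (-0.44), with coding isoforms Gm37159 (0.78), Gm43728 (0.55) and Gm43727 (0.30), and with spanning isoforms Gm47664 (0.14). Without replicate 3, Gm37006 was no longer called. Mean TPM of named members moved by more than 1 SD for 18 of 43 with the other quantifier. Leaving out 1 of 3 libraries cannot move a mean by more than 1 SD, so the 0 found there was fixed by arithmetic and shows no stability. Levels of named members in CPM were not run, being another unit. Depth limits members below about 3 counts, and models at 0 are not shown to be absent.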
